A study of Caenorhabditis elegans with 2 samples.

Results

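The genes described here are 10 heat shock chaperone genes of Caenorhabditis elegans, taken by name from a list of gene symbols. The rule uses no measured value, but the list was drawn up with earlier results of these data known. Each of the 10 names matched a single gene in the Ensembl WBcel235 annotation, which holds 19973 nuclear protein-coding genes. They were examined in a chromatin immunoprecipitation sequencing (ChIP-seq) study of LIN-13, a chromatin regulator with zinc fingers that is classed with the synMuv B proteins. The worms were whole L2 larvae of mixed sex, of strain OP49, written in the labels as unc119(ed3) with the transgene wgIs49 (lin-13::TY1 EGFP FLAG with unc119). The labels name lin-13 as the antibody target and describe the precipitation as one against eGFP-LIN-13. There is a single group of 2 biological replicates, and the labels give no heat or other stress for either, so no stressed state is compared here. The promoter that drives the transgene is not stated in the labels, and whole animals mix all cell types.

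Heat shock proteins are molecular chaperones that bind unfolded protein chains and help them to fold. Some are made at all times and serve each compartment: HSP70-type and HSP110-type proteins in the cytosol, BiP in the endoplasmic reticulum (ER), and mitochondrial HSP70 and HSP60 in mitochondria. Others are nearly silent until proteins misfold, when heat shock factor HSF-1 binds heat shock elements, arrays of the unit GAA and its reverse TTC, or when the unfolded protein responses of the ER or mitochondria act. The 5 constitutive members here are hsp-1 (the main cytosolic HSP70), hsp-3 (an ER BiP), hsp-6 (mitochondrial HSP70), hsp-60 (mitochondrial chaperonin) and hsp-110 (an HSP110-type nucleotide exchange factor for HSP70). The 5 stress-inducible members are hsp-4 (the BiP gene known for induction by ER stress), hsp-70 (a heat-inducible HSP70), the small heat shock protein genes hsp-16.2 and hsp-16.41, and hsp-12.6. The grouping follows general knowledge and is not sharp. The mitochondrial genes hsp-6 and hsp-60 also rise in the mitochondrial stress response, and hsp-12.6 is known as a target of the factor DAF-16 more than as a heat-induced gene.

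The data are 4 peak lists on ce11, which has the coordinates of WBcel235. Replicate 1, replicate 2 and the pooled replicates each have 30000 entries, which include weak background, and a thresholded list has 3040 peaks, of which 3013 are nuclear. Every thresholded peak was also in the pooled list, and together they were its 3040 strongest entries. Each entry carries a signal value of the authors, used here only for its rank within a list, with 1 the strongest. Read counts are not part of the lists and the depth is unknown. A promoter window ran from 1000 bp upstream to 200 bp downstream of the outermost annotated start.

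The 5 constitutive promoters and a shared small heat shock promoter held the members' thresholded summits, and their sequences are shown first. Each is the reference sequence from RefSeq WBcel235, 5′ to 3′ on the strand of the named gene, from 75 bp before to 75 bp after the summit of the pooled entry. That of hsp-3 was cut at the start of the gene, and base 76 is the summit. Capitals mark 3 kinds of letters, searched on both strands: paired heat shock units (GAANNTTC or TTCNNGAA), the CCAAT box (CCAAT, or ATTGG on the other strand) and TGACGTG (or CACGTCA), the core of an element of the ER stress response. The summits of hsp-60 (III:1619061-1619211, plus strand), hsp-3 (X:6092125-6092263, minus strand) and hsp-6 (V:4827119-4827269, minus strand) are those with a CCAAT box within 75 bp.
hsp-60: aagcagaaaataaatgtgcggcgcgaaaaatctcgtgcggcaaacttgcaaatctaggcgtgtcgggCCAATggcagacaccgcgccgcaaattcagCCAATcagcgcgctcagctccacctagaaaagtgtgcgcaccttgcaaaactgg
hsp-3: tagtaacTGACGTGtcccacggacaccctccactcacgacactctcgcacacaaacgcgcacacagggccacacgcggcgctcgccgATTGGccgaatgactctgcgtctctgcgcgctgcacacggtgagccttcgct
hsp-6: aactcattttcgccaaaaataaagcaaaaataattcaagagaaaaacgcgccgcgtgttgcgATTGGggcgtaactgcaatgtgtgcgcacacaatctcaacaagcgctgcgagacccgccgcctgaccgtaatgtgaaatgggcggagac

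The summits of hsp-110 (III:8447108-8447258, minus strand) and hsp-1 (IV:17278500-17278650, plus strand) are the constitutive members with paired heat shock units and no CCAAT box in the window.
hsp-110: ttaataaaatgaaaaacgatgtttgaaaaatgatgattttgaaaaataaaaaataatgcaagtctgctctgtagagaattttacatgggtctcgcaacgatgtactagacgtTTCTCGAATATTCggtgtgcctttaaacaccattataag
hsp-1: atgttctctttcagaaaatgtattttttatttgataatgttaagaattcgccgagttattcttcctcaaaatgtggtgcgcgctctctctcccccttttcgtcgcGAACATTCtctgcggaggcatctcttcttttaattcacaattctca

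The small heat shock genes hsp-16.2 and hsp-16.41 are divergent, and the whole 220 bp between their starts (V:1804958-1805177) is shown on the minus strand, the strand of hsp-16.2, with the summit at base 45. The window of hsp-4 (II:7352720-7352870, minus strand) is given beside it as an inducible promoter with no thresholded summit.
hsp-16.2: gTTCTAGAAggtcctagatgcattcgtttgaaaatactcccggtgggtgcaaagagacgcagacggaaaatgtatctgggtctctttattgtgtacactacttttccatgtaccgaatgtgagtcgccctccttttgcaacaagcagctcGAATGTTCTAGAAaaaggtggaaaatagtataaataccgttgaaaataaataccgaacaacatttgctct
hsp-4: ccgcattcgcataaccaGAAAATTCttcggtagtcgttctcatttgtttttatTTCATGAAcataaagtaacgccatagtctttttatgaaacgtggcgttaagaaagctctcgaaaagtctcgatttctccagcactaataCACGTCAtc

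In hsp-60 the CCAAT boxes lay at bases 68 to 72 and 98 to 102, 4 and 22 bp from the summit base. In hsp-6 the box was 9 bp from the summit, at bases 63 to 67, and in hsp-3 it was 12 bp away, at bases 88 to 92. CCAAT was searched for after the sequences had been read. Of the 3013 nuclear thresholded summits, 22.9% had it within 75 bp. In hsp-110 a run of 3 units, TTCTCGAATATTC, filled bases 113 to 125, 37 bp from the summit. In hsp-1 a pair of units, GAACATTC, lay 30 bp from the summit, at bases 106 to 113. Between the hsp-16 genes a pair of units stood at bases 2 to 9, 36 bp from the summit and nearer to the start of hsp-16.41, and a run of 3 units at bases 151 to 163 lay 106 bp from it on the side of hsp-16.2. The pair at bases 2 to 9 belongs to a further run of 3 units that crosses the start of hsp-16.41. Of the 3013 nuclear thresholded summits, 366 had a pair of units within 75 bp and 0.763% had a run of 3. The window of hsp-12.6, which is not printed, held none of the 3 kinds of letters. A match is a description of letters and not a measured binding site.

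Thresholded promoter summits were found at 5 of 5 constitutive members and at 2 of 5 stress-inducible members, which share a single summit. Among all nuclear protein-coding genes the share was 11.6% (2312 of 19973). With the 3040 strongest entries of replicate 2 in place of the thresholded list, the stress-inducible count was 1 of 5, hsp-12.6, and the constitutive count was again 5 of 5. The strongest member was hsp-60 (WBGene00002025, III:1619742-1625803, plus strand). Its entry at III:1618990-1619274 had rank 59 in replicate 1 and 41 in replicate 2, and its pooled rank was 57. For hsp-110 (WBGene00016250, III:8443910-8446909, minus strand) the entry at III:8447051-8447287 had rank 111 in replicate 1, rank 86 in replicate 2 and pooled rank 95. For hsp-1 (WBGene00002005, IV:17278959-17281330, plus strand) the entry at IV:17278447-17278698 had rank 146 in replicate 1, rank 119 in replicate 2 and pooled rank 140. The ranks of hsp-1 and hsp-110 were thus similar in both replicates. This was not particular to the 2 genes in replicate 1, where hsp-3 ranked between them, though in replicate 2 it did not. The hsp-110 summit also lay nearer to the start of rpn-3 (170 bp) than to that of hsp-110 (274 bp).

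The ER gene hsp-3 (WBGene00002007, X:6089028-6092124, minus strand) had its entry at X:6092105-6092251, with rank 124 in replicate 1, rank 299 in replicate 2 and pooled rank 204. The mitochondrial HSP70 gene hsp-6 (WBGene00002010, V:4824124-4826760, minus strand) was the weakest of the constitutive genes. Its entry at V:4827108-4827241 had rank 661 in replicate 1, rank 517 in replicate 2 and pooled rank 609. The order of hsp-60, hsp-110 and hsp-1 was the same in both replicates, while hsp-3 stood above hsp-1 in replicate 1 and below it in replicate 2, so these neighbours were not separated.

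**Figure D1:**
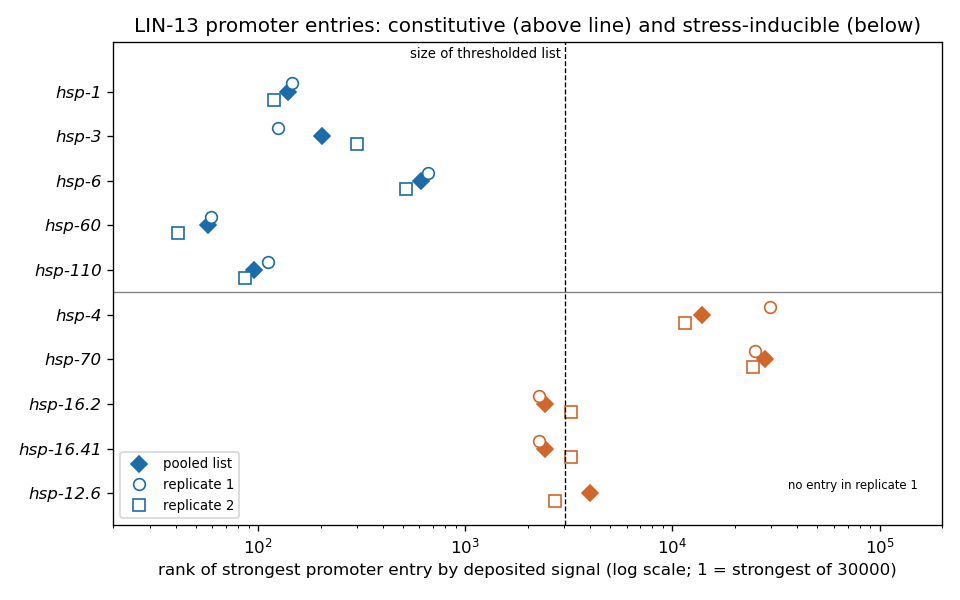
Rank by deposited signal (log axis, 1 is strongest of 30000) of the strongest promoter entry of each gene in the pooled list (filled diamonds), replicate 1 (open circles) and replicate 2 (open squares). The constitutive genes lie between ranks 41 and 661 in every list, and the stress-inducible genes lie at rank 2257 or weaker, with hsp-12.6 lacking a replicate 1 entry.

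Among the stress-inducible genes, hsp-16.2 (WBGene00002016, V:1804334-1804957, minus strand) and hsp-16.41 (WBGene00002018, V:1805178-1805875, plus strand) share the entry at V:1804958-1805307. It had rank 2257 in replicate 1, rank 3238 in replicate 2 and pooled rank 2414. In replicate 2 it therefore fell outside the 3040 strongest entries. In hsp-12.6 (WBGene00002013, IV:9446229-9447228, minus strand) the strongest promoter entry, at IV:9447202-9447551, ranked 3980 in the pooled list and 2702 in replicate 2, and replicate 1 listed no entry in the window. The entry of hsp-4 (WBGene00002008, II:7350112-7352645, minus strand) at II:7352620-7352969 ranked 13835 in the pooled list. The replicate 2 entry over it ranked 11541, while the only replicate 1 entry in the window, at rank 29417, lay 659 bp upstream and did not overlap it. A stronger replicate 1 entry, of rank 9717, had its summit 218 bp downstream of the start, just past the window edge at 200 bp.

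The weakest promoter entry was that of hsp-70 (WBGene00002026, I:9320325-9322519, minus strand), at I:9322372-9322721. Its rank was 25008 in replicate 1 and 24374 in replicate 2, its pooled rank was 27919, and the replicate summits were 263 bp apart. The gene lies within an intron of uggt-2. Entries of any strength were common, since 36.3% of all protein-coding genes had some pooled entry in the promoter window, as had all 10 members. Of the genes with any such entry, 31.8% also had a thresholded summit.

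Among the 10 members the ranks of the classes did not overlap in any of the 3 lists. Other chaperone genes, described below, did not all follow this. There, hsp-90 had no pooled promoter entry, and the heat-inducible F44E5.4 and F44E5.5 share a summit of pooled rank 319. The constitutive genes had a median pooled rank of 140 (57 to 609) and the stress-inducible genes a median of 3980 (2414 to 27919). In replicate 1 the medians were 124 for the constitutive genes and 13632.5 for the 4 stress-inducible genes with an entry. In replicate 2 they were 119 for the constitutive genes and 3238 for the stress-inducible genes. The entry shared by hsp-16.2 and hsp-16.41 counts once for each gene, so the stress-inducible medians lean on it. The replicate 1 median leaves out hsp-12.6, which had no entry there, so the replicate medians cover different genes. That median also takes hsp-4 at rank 29417, although a replicate 1 entry of rank 9717 lay just past its window. The pooled list is made from the same replicates and is no further sample. Because of how the genes were chosen, these ranks are a description and no test was made. Both replicates placed a promoter entry among their 3040 strongest for the 5 constitutive genes and for none of the stress-inducible ones, against 9.22% of all protein-coding genes.

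Set against the whole genome, promoter entries at least as strong as that of hsp-60 were found at 0.220% of protein-coding genes. The share was 0.421% for hsp-110, 0.711% for hsp-1, 1.07% for hsp-3 and 3.15% for hsp-6. For the hsp-16 pair the number was 2001 of 19973 genes. The share was 13.5% for hsp-12.6, 24.9% for hsp-4 and 35.0% for hsp-70. The shared hsp-16 summit thus lay in the weaker part of the thresholded list, whereas the constitutive summits lay in its stronger part.

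**Figure D2:**
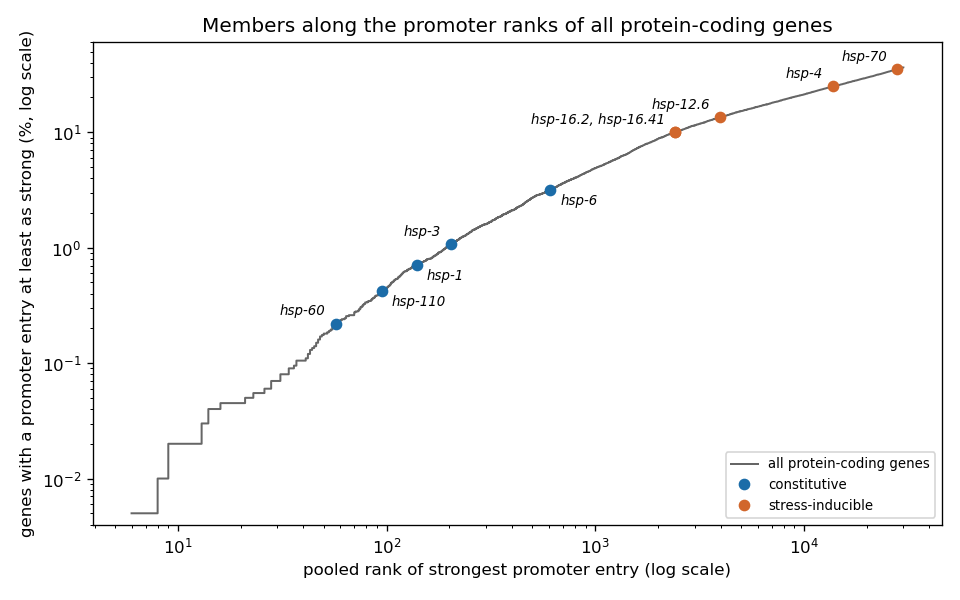
Share of the 19973 protein-coding genes (log axis, percent) whose strongest promoter entry is at least as strong as a given pooled rank (log axis), with the members as points in blue for constitutive and orange for stress-inducible genes. The constitutive genes sit between 0.220% and 3.15% and the stress-inducible genes lie higher, up to 35.0% at hsp-70.

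Between the replicates, the thresholded promoter summits of the members lay 4 to 39 bp apart, not in the order of their ranks. The distance over all thresholded summits was not computed. The replicate summits were 4 bp apart at hsp-60, 11 bp at hsp-3, 15 bp at hsp-1, 18 bp at hsp-110 and 39 bp at hsp-6. At the hsp-16 pair they were 27 bp apart. The pooled entries of the constitutive genes were 134 to 285 bp wide, while every stress-inducible promoter entry had a width of 350 bp, the width of 2500 of the 3013 nuclear thresholded peaks.

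Where the summits lay depended on the gene. That of hsp-3 was 64 bp upstream of the start, that of hsp-110 274 bp, that of hsp-1 384 bp, that of hsp-6 434 bp and that of hsp-60 606 bp. The median over the strongest thresholded promoter summits of all genes that had one was 236 bp upstream (quartiles 131 and 414 bp). The summits of hsp-6 and hsp-60 were therefore farther from the start than the upper quartile, and that of hsp-3 was nearer than the lower one. The hsp-6 summit fell within exons of the non-coding RNA genes C37H5.15 and C37H5.16, and the others of these 5 were intergenic. At hsp-110 and hsp-1 the start of a non-coding RNA gene was nearer to the summit than the member's own start. These were C30C11.14 at 88 bp and F26D10.23 at 162 bp.

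The promoters of 3 of the 5 constitutive genes, and that of the hsp-16 pair, are shared with a divergent gene. The hsp-60 summit was 207 bp from the start of Y22D7AL.10, which encodes the HSP10-type partner of the HSP60 chaperonin, so a single summit lay between the genes of both partners. The hsp-110 summit was 170 bp from the start of rpn-3, a proteasome subunit gene, and the hsp-6 summit was 166 bp from the start of C37H5.5. In each of these cases the neighbour's start was the nearer. The hsp-16 summit was 45 bp from the start of hsp-16.41 and 176 bp from that of hsp-16.2. With a summit counted only for the protein-coding start nearest to it, hsp-1 and hsp-3 kept a peak among the constitutive genes and hsp-16.41 among the inducible ones, against 8.36% of all protein-coding genes. Of all 1727 nuclear thresholded promoter summits, 35.1% lay in the windows of 2 or more protein-coding genes. Which of 2 divergent genes a peak concerns cannot be told apart from position alone.

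The gene ends gave a second contrast between the classes among the 10 members, noticed after the entries were seen. Thresholded summits lay within 300 bp of the annotated gene end at 4 of 5 constitutive genes and at 0 of 5 stress-inducible genes, against 2.94% of all protein-coding genes. Among genes with a thresholded promoter summit the share was 7.87%. Of the 630 genes with a promoter entry at least as strong as that of hsp-6, 69 had such a summit. Of the 70 other chaperone and stress response genes described below, 14 had one. Among these were the heat-inducible F44E5.4 and F44E5.5 and 2 of 13 other small heat shock genes, so inducible relatives did not all follow the contrast.

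The hsp-1 gene-end entry at IV:17281387-17281564 had its summit 127 bp past the end, in an exon of nra-1 outside its coding sequence. Its rank was 372 in replicate 1 and 718 in replicate 2, and its pooled rank was 547. The hsp-110 gene-end entry at III:8443700-8443857 had its summit 99 bp past the end, with rank 1372 in replicate 1, rank 478 in replicate 2 and pooled rank 756. These were the strongest gene-end entries of the members.

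At hsp-6 the gene-end entry at V:4823825-4824174 had its summit 124 bp past the end, with rank 1105 in replicate 1, rank 1141 in replicate 2 and pooled rank 1129. At hsp-3 the entry at X:6088808-6089157, with its summit 45 bp past the end, had rank 1764 in replicate 1, rank 3262 in replicate 2 and pooled rank 2279, so replicate 2 placed it outside its 3040 strongest. The fifth constitutive gene, hsp-60, the longest of the members, had a gene-end entry at pooled rank 23416 only. Each gene-end entry was weaker than the promoter entry of the same constitutive gene.

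Part of this contrast is shared with the next gene along. The hsp-110 gene-end summit was also in the promoter window of ufbp-1, 204 bp from its start, and the hsp-6 gene-end summit was in that of adss-1, 577 bp from its start. Those of hsp-1 and hsp-3 lay in no protein-coding promoter window. When only such summits were counted, 2 of 5 constitutive genes and 0 of 5 stress-inducible genes had one, against 1.16% of all protein-coding genes.

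Among the stress-inducible genes the gene-end entries were weaker. The strongest was that of hsp-70 at pooled rank 5326, 209 bp past the end. Its summit lay in an intron of uggt-2, 62 bp from the start of a tRNA gene (WBGene00012377). It was followed by hsp-16.2 at rank 6857, 19 bp before it, and hsp-4 at rank 9714, 29 bp before it. In hsp-4 and hsp-70 these entries outranked the promoter entry of the same gene. At hsp-12.6 the gene-end entry ranked 29467, and hsp-16.41 had no pooled one.

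**Figure D3:**
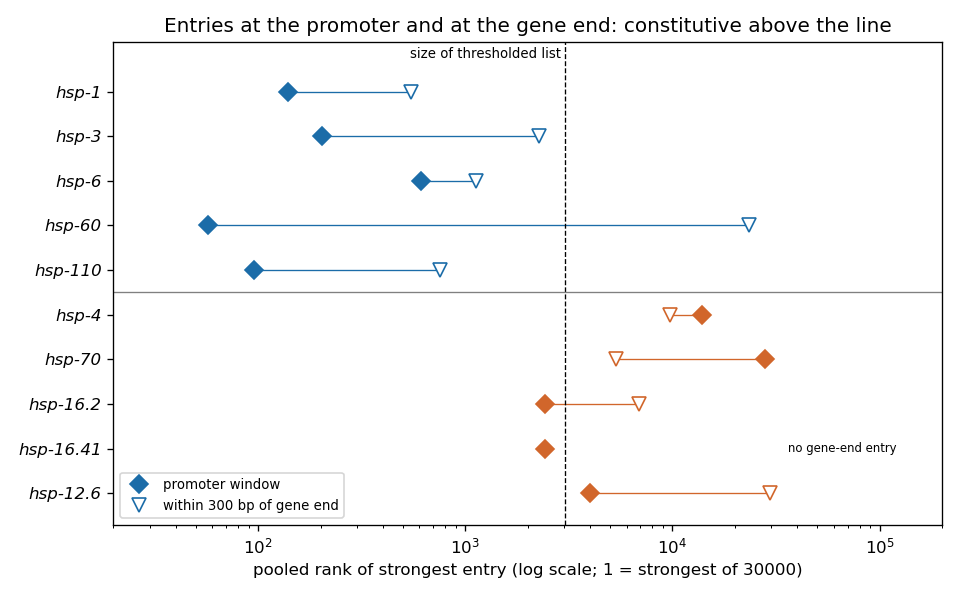
Pooled rank (log axis, 1 is strongest of 30000) of the strongest entry in the promoter window (filled diamonds) and within 300 bp of the gene end (open triangles), constitutive genes above the line in blue and stress-inducible genes below in orange. The triangles of hsp-1, hsp-110, hsp-6 and hsp-3 lie left of the dashed line at 3040, and no stress-inducible triangle does.

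Farther from the promoters, the 5 kb around the starts held between 5 and 11 pooled entries at the constitutive genes and between 3 and 10 at the stress-inducible genes, against a median of 2 over all protein-coding genes. Thresholded summits numbered 2 to 5 at the constitutive genes and 0 to 3 at the stress-inducible ones, and 72.5% of all protein-coding genes had none. Around hsp-60 there were 5, more than at any other member. Besides the promoter, summits lay 3285 bp (pooled rank 703), 3072 bp (rank 1704) and 2870 bp (rank 2725) upstream. An intronic summit lay 2843 bp downstream of the start (rank 2624). The upstream summits were nearer to other starts, that of Y22D7AL.9 (2424 bp) for rank 703 and that of Y22D7AL.10 (2259 and 2057 bp) for the others. The summit of rank 2725 also lay within 300 bp of the Y22D7AL.10 gene end, and its entry adjoined that of rank 1704.

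Near hsp-12.6 the thresholded entries lay closer to other genes. The thresholded summit at IV:9444491-9444641, pooled rank 226, lay 2609 bp downstream of the hsp-12.6 start and 1610 bp past its end. It was 23 bp from the start of the snRNA gene F38E11.11 and in the promoter window of F38E11.9. It ranked 267 in replicate 1 and 216 in replicate 2. A further summit, at rank 1999, lay in an exon of the small heat shock gene hsp-12.3 outside its coding sequence. No thresholded summit lay within 5 kb of the starts of hsp-4 or hsp-70.

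**Figure D4:**
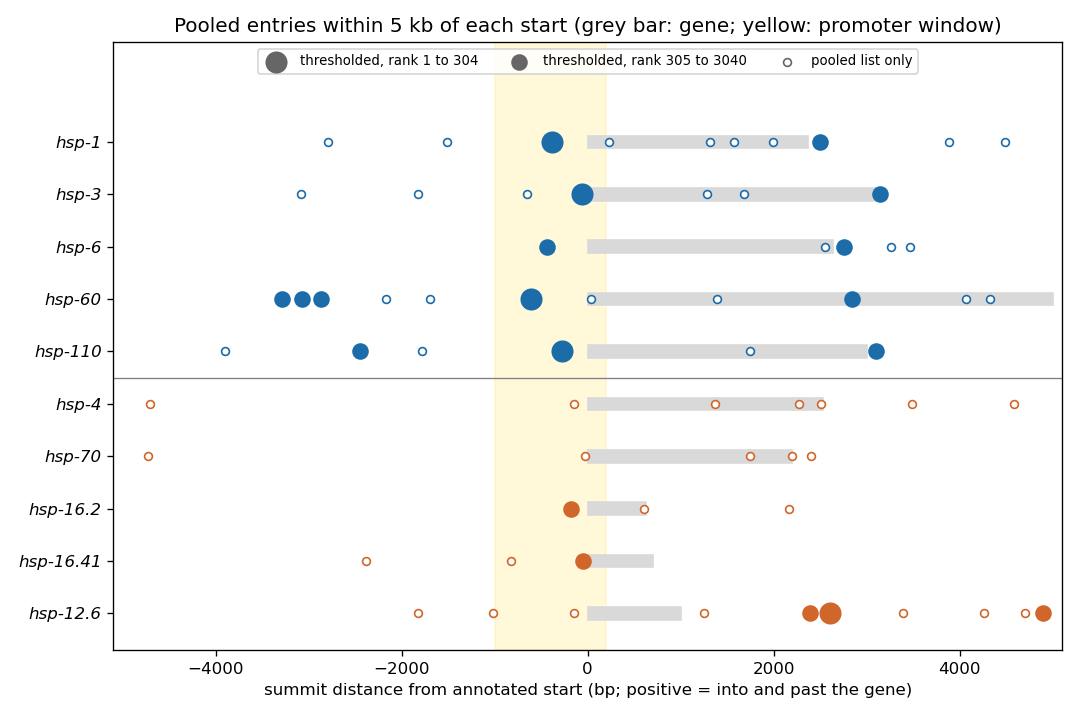
Summits of pooled entries within 5 kb of each annotated start, as distance in bp in the direction of transcription, with the gene as a grey bar (that of hsp-60 runs past the plot) and the promoter window in yellow. Filled circles are thresholded entries, large for ranks 1 to 304, and open circles are in the pooled list only, with constitutive genes in blue above the line and stress-inducible genes in orange. Large circles mark the promoters of hsp-1, hsp-3, hsp-60 and hsp-110 and the snRNA-side entry near hsp-12.6.

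Base composition at the summits varied more among the constitutive genes than among the stress-inducible ones. In the 151 bp around the summit, GC content was 62.9% at hsp-3, 53.6% at hsp-60, 49.7% at hsp-6, 39.1% at hsp-1 and 31.1% at hsp-110. It was 38.4% at hsp-4, 37.7% at hsp-12.6 and 33.8% at hsp-70, and the hsp-16 pair stood at the 47.2nd percentile of thresholded summits. The median over nuclear thresholded summits was 43.7% (quartiles 38.4 and 49.0%). The hsp-3 window was at the 99.4th percentile of these summits and that of hsp-110 at the 6.90th. Within 75 bp of the summit, the CCAAT boxes stood in the richer 3 of the constitutive windows and paired heat shock units in the poorer 2. This split did not hold within 150 bp, where 5 of the 6 distinct thresholded summits of the members had paired units and 4 had a run of 3, the hsp-60 and hsp-6 summits among them.

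Heat shock units did not follow the classes or the ranks. In the 300 bp before the start, runs of 3 units were found at 2 constitutive genes, hsp-110 with 2 and hsp-1 with 1, and at 3 stress-inducible genes, hsp-16.2 with 2, hsp-16.41 with 1 and hsp-70 with 1. Over all protein-coding genes 1.92% had at least 1. In the full promoter window hsp-6 and hsp-60 also held a run of 3 units each, and hsp-3, hsp-4 and hsp-12.6 held 0, against 7.68% of all genes with at least 1. The hsp-70 promoter thus had the units and an entry near the bottom of the list, while hsp-3 had none and a pooled rank of 204. The ER stress letters TGACGTG were found in the promoter windows of both BiP genes, hsp-3 and hsp-4, and in that of hsp-110, there downstream of the start, against 9.42% of all genes. They lay 62 bp from the summit at hsp-3 and 67 bp from it at hsp-4, whose entry had pooled rank 13835. Of thresholded summits, 2.72% had them within 75 bp. The DAF-16 letters GTAAACA were found only in the promoter window of hsp-70 among the members (15.1% of all genes). Within 75 bp of the summits, TTTGAA was found at hsp-110, hsp-70 and the hsp-16 pair and at hsp-12.6 (28.0% of thresholded summits), TATAAA at hsp-70 (9.89%) and GAGAGA at hsp-1 (35.7%).

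Other chaperone and stress response genes were then counted by role. Across 6 lists, 33 of 70 gene identifiers had a thresholded promoter summit (47.1%), against the 11.6% of all protein-coding genes. The list drawn up for cytosolic HSP70 and HSP90 cochaperones had 11 of 14. It is not purely one of cochaperones, since it also holds hsp-90 itself and aha-1 (pooled rank 1799, among the 11), which encodes an ARNT-type transcription factor. It was led by bag-1 (pooled rank 98), a nucleotide exchange factor for HSP70, and the J-domain gene dnj-13 (rank 250, a summit shared with F54D5.9). They were followed by sti-1 (rank 350), which links HSP70 and HSP90, and the J-domain gene dnj-19 (rank 522, shared with nhr-47). The 3 without one were hsp-90, cdc-37 and chn-1, named after their values were seen, and none of them had any pooled entry in the promoter window. A thresholded summit of rank 1130 lay within 300 bp of the hsp-90 gene end.

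ER chaperones had 6 of 12, led by the calreticulin gene crt-1 (rank 157), the protein disulphide isomerase gene pdi-6 (rank 213), enpl-1 (rank 353, an ER HSP90, shared with imp-2) and pdi-3 (rank 411, shared with ubql-1). In the same list cnx-1, named after its value was seen, had its promoter entry at pooled rank 7899. In the pooled list that is weaker than the entries of the hsp-16 pair and hsp-12.6. The strongest cnx-1 promoter entry ranked 3431 in replicate 1, where hsp-12.6 had none, and 6391 in replicate 2. Mitochondrial folding and protease genes had 6 of 10, led by Y22D7AL.10 with the hsp-60 summit, the import channel gene timm-23 (rank 634, shared with F15D3.6) and the prohibitin genes phb-1 (rank 892, shared with Y37E3.8) and phb-2 (rank 1072). Stress regulators had 7 of 17, led by the ER stress factor genes atf-6 (rank 444) and xbp-1 (rank 445), then ubl-5 (rank 1165) and the ER stress sensor gene ire-1 (rank 1620). The heat shock factor gene hsf-1, named after its value was seen, had its promoter entry at pooled rank 3589, just weaker than the thresholded list.

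The other small heat shock genes had 1 of 13, sip-1 (rank 431, shared with sly-1), a share of 7.69%. That was near the background. The 13 include the duplicated hsp-16.1 and hsp-16.48 genes, where 0% to 6.74% of 30-base runs in the window occur once. An entry there could be missed. The further HSP70 genes had 2 of 4. These were F44E5.4 and F44E5.5, a divergent pair of heat-inducible HSP70 genes, which share a thresholded promoter summit of pooled rank 319, which ranked 314 in replicate 1 and 327 in replicate 2. That is stronger than the hsp-6 summit, and both genes also had thresholded gene-end summits, of ranks 575 and 545. With them the ranks of constitutive and inducible genes would overlap. Only 21.8% of the 30-base runs in either window occur once in the reference, so reads could be split between copies and these ranks are uncertain.

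**Figure D5:**
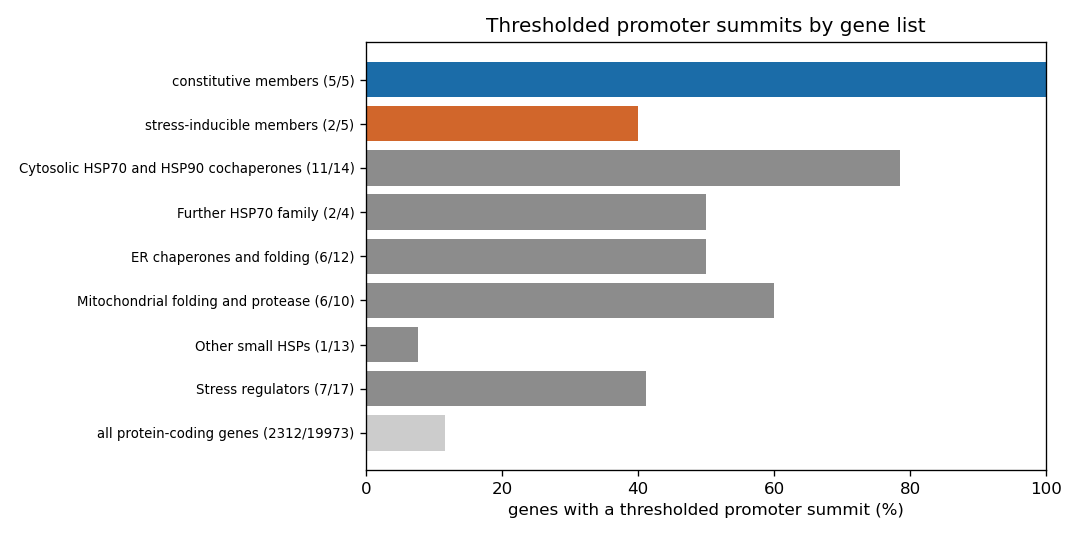
Share of genes (percent) with a thresholded promoter summit for the constitutive members, the stress-inducible members, the 6 other chaperone and stress response lists and all protein-coding genes, with counts beside the names. Bars run from 100% for the 5 constitutive members and 40% for the 5 stress-inducible members to 7.69% for the other small heat shock genes.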

How the data were processed

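LIN-13 ChIP-seq peak lists of 2 biological replicates were used. Per the deposited file listings, the authors made lists of peaks and background for each replicate and for the pooled replicates, as input to the irreproducible discovery rate step, and a thresholded list from these. The sources used here do not give the aligner, the peak caller, their versions or the threshold. The deposited signal value per entry has no stated scale and served only to rank entries within a list. A control experiment named in the labels and the ce10 lists were not analysed here.

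Coordinates are 1-based on ce11, and 0 entries ran past a chromosome end of RefSeq WBcel235. Genes came from Ensembl release 115. Summits were assigned to every promoter window holding them, and replicate entries were matched to pooled ones by an overlap of at least 1 bp. The promoter assignment was tested on simulated data. Members, classes and lists were chosen with earlier results of these data known, and no test was made on them. All members and up to 4 genes per list, by pooled rank, are named, together with genes sharing a member's summit; other genes, those beside gene-end and distant entries among them, were named after their values were seen. In the small heat shock list 2 names, hsp-16.11 and hsp-16.49, were unmatched, and hsp-16.1 and hsp-16.48 each matched 2 identifiers. The replicates are called biological in the labels, which do not describe their cultures. Python 3.11.15, numpy 2.4.6 and matplotlib 3.10.9 were used.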

Additional observations from a re-analysis of the deposited data

How the results depend on the processing

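No paired analysis was possible because the design has a single group. The count of constitutive members with a thresholded promoter summit was 5 to 5 and that of stress-inducible members 1 to 2 when 1 replicate's own 3040 strongest entries replaced the thresholded list. In replicate 2 alone the inducible member was hsp-12.6 in place of the hsp-16 pair. Over all members that count was 6 to 7, over the other lists 30 to 31 of 70, and over all genes 2264 to 2296. Giving each summit to the nearest start left 3 members, 2 constitutive and 1 stress-inducible, against 1669 of all genes (8.36%). The stronger 1520 peaks left 5 constitutive and 0 stress-inducible members, and 1393 genes in all (6.97%). Counting any pooled entry gave 5 of 5 in each class, 53 of 70 other genes and 7260 genes in all. With a window from 500 bp before to 100 bp after the start, hsp-60 lost its summit, and its strongest pooled entry ranked 7170. With hsp-4 counted as constitutive, the counts were 5 of 6 constitutive and 2 of 4 stress-inducible. The cause of the difference between the replicates was not tested. The gene-end counts, with distances added after the data were seen, were 4 of 5 constitutive and 0 of 5 stress-inducible genes within 150 bp (1.57% of all genes) and within 500 bp (3.81%). In the strongest entries of replicate 2 alone 3 of 5 constitutive genes had one (3.16% of all genes), since that of hsp-3 ranked 3262. With motif windows of 150 bp around the 6 distinct member summits of the thresholded list, 5 held paired heat shock units, against 3 within 75 bp. CCAAT was at 3 of the 6 within 50, 75 and 150 bp. The depth of each replicate is unknown, so weak entries such as that of hsp-70 cannot be told from an absence of signal.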

Other observations

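Repeated sequence was counted in the promoter windows of the members and of 6 relatives. In the promoter windows of the 10 members, 93.2% to 100% of all runs of 30 bases occurred once in the reference. The lowest was hsp-4. In the windows of 4 of the relatives, the duplicated hsp-16.1 and hsp-16.48 genes, the share was 0% to 6.74%, and no pooled entry lay in these windows. The sources used here do not give read lengths or how reads with several matches were treated, and the part of repeated sequence in these values was not tested.

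By replicate ranks, the genes most like hsp-60 outside its own summit were ekl-4 and the ribosomal protein gene rps-20, which share a summit ranked 61 in replicate 1 and 38 in replicate 2, and Y71H2AM.20 (55 and 36). Those most like hsp-16.2 were the tetraspanin gene tsp-12 (2318 and 3213), the glyceraldehyde-3-phosphate dehydrogenase gene gpd-2 (2312 and 3298) and the kinase gene cdk-11.2 (2251 and 3438). Likeness was the sum of absolute log10 rank differences over 2 replicates.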
